A study of Nematostella vectensis with 66 samples.

Results

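The 100 gene models described here of Nematostella vectensis, the starlet sea anemone, were chosen because their transcripts in whole adult animals stood highest in the last hours of a sampled day, at ZT11 or ZT12. Zeitgeber time (ZT) counts hours from the start of the light phase, and ZT3 to ZT12 correspond to 8 h to 17 h on the clock. The members were chosen by the measured expression values themselves, namely their hourly means and F. Counts of 60 libraries from 9 hours were scaled by their column totals to CPM, so that each library had the same sum, and transformed as log2(CPM + 2). Gene models with a mean of at least 15 CPM were ranked by the F statistic of a one-way analysis of variance over the hours, which is the variance between hours over that within hours. The members are the 100 with the largest F among the 1249 whose highest hourly mean fell at ZT11 or ZT12. These 1249 were part of 7691 gene models past the floor of 15 CPM, out of 24265 in the count table. The hourly levels therefore chose the members, and they are given as a description with no test.

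Nematostella is a burrowing cnidarian of estuaries and salt marshes, where light, temperature, salinity and water level change over the day. It carries relatives of the animal clock genes, among them Clock, Cycle and cryptochromes, and in the laboratory light and dark cycles drive daily rhythms of locomotion and of many transcripts. Such rhythms are usually described from animals kept under controlled lamps, whereas these animals stood in a natural pool under daylight. The files identify genes by model number and do not pair the numbers with names, and 0 of the 24265 identifiers matched the reference table used here. No function or sequence is therefore given for any member.

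The animals descended from a population of Great Sippewissett Marsh, Massachusetts, had been reared in the laboratory for generations, and were acclimated to the salinity of the site before they were set out in mesh pens in a tidally restricted pool. There was 1 untreated population of adults, so the groups differ by the hour of collection and by whether a library held 1 animal or a pool of 2. The 66 libraries comprise 29 pooled and 37 individual ones, with 7 libraries at most hours, 4 at ZT4 (3 pooled, 1 individual) and 6 at ZT6 (2 pooled, 4 individual). The labels do not tie animals to pens and name no replicate days, and the hours were taken as those of 1 day. The hour therefore cannot be told apart from the tide, the temperature or the pen of that hour. Libraries are separate animals or separate pools, so the p-values below rest on the spread between libraries. That spread joins single animals with pools of 2, and it includes library preparation and counting.

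Library totals ran from 251647 to 909746 counts, with a median of 640195. Libraries named by hour, sample type and letter were left out of the choice of members as follows: ZT3 individual B, ZT5 pooled E, and all of ZT4, which are individual C and pooled D, E and F. ZT4 individual C had the lowest total, and ZT4 pooled D carries a letter that the stated protocol gives to single animals. A block of other transcripts was shared by 2 pooled libraries, ZT4 E and ZT5 E, and 2 individual ones, ZT3 B and ZT4 C. Of this block, NVE3853 stood at 453 and 1650 CPM in those pools and at 2060 and 827 CPM in those single animals. Since whole animals were sequenced, fewer cells of a type and less RNA per cell cannot be told apart in any value below.

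Of the 100 members, 74 were highest at ZT12 and 26 at ZT11. The members were not a set that climbed steadily through the day. As a mean over all members, relative to the average of the 60 libraries, the level at ZT3 had a lowest, median and highest library of -0.29, -0.13 and 0.09 log2 units. At ZT5 it stood at -0.93, -0.66 and -0.41, and all 6 libraries lay below every library of the other 8 hours of the choice, except that the highest of them stood above 1 ZT10 library at -0.43. By ZT6 the values were back at -0.20, 0.01 and 0.19, and they stayed near there at ZT7 (-0.23, 0.11 and 0.28), ZT8 (-0.04, 0.14 and 0.18) and ZT9 (-0.13, 0.03 and 0.35). At ZT10 they were lower again, at -0.43, -0.27 and -0.03, and at ZT11 they stood at 0.04, 0.10 and 0.26. At ZT12 they reached 0.34, 0.54 and 0.71. The ZT12 libraries lay above all libraries of the other 8 hours, except that the highest ZT9 library lay within their range.

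**Figure D1:**
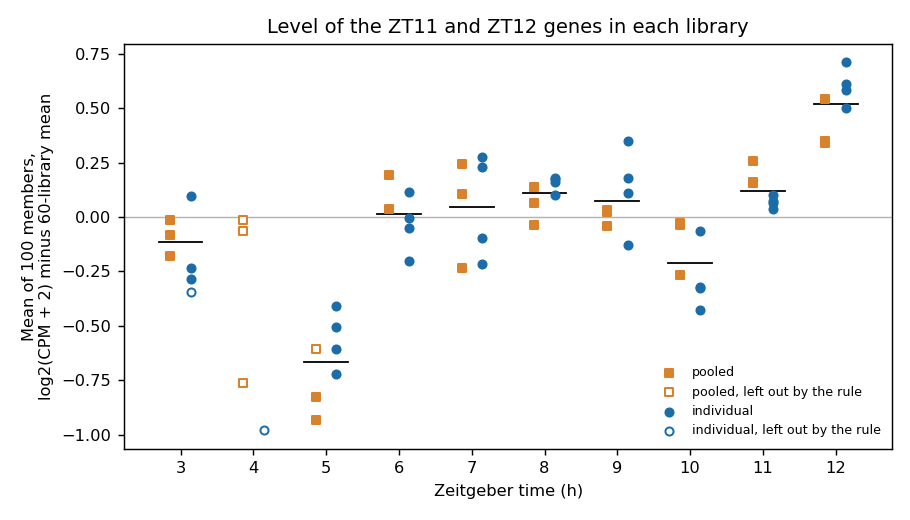
Mean of the 100 members in each library (vertical axis, log2(CPM + 2) minus the mean over 60 libraries) by hour of collection (horizontal axis); squares are pools of 2 animals, circles single animals, open symbols the 6 libraries left out of the choice, and black lines the mean of the others. Libraries of ZT12 lie between 0.34 and 0.71, those of ZT5 between -0.93 and -0.41, and the 4 libraries of ZT4 fall between -0.98 and -0.01.

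The path of the members between hours can be read as steps of the hourly means. The member in the middle was 0.48 log2 units lower at ZT5 than at ZT3, with 73 of 100 members lower, where the median over all 7691 gene models was -0.04. At ZT6 the median member stood 0.45 above ZT5, with 87 members higher, against a median of 0.03 over all gene models. At ZT10 it stood 0.29 below ZT9, with 80 members lower, and here the median of all gene models was also below 0, at -0.15. The next 2 steps were upward. ZT11 minus ZT10 had a median of 0.32 (79 members higher, against 0.02 over all gene models), and ZT12 minus ZT11 a median of 0.47 (74 members higher, against 0.02 over all gene models). From the low hour to the last one, ZT12 minus ZT5 came to a median of 1.16 log2 units with 88 members higher, against 0.10 over all gene models. Gene models higher or lower at each step were not counted over the whole table. All these hours chose the members, so the steps are a description.

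For 51 members, every ZT12 library lay above every ZT5 library of the choice. Over all 7691 gene models this held for 2.87%, but both hours were used to choose the members, so nothing is read from the gap. The same count was 16 for ZT12 above ZT3, where it held for 1.16% of all gene models, and 14 for ZT12 above ZT6 (0.871%). It was 6 for ZT12 above ZT10 (0.273%), 4 for ZT12 above ZT9 (0.338%) and 4 for ZT12 above ZT11 (0.169%). These hours were used in the choice too, and the counts are a description.

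The members fell into groups by their lowest hour. The lowest hourly mean was at ZT5 for 60 members, at ZT3 for 15, at ZT9 or ZT10 for 15, and at some other hour for 10. The last group included 1 member, NVE22564, singled out after its values were seen, that was highest at ZT11 and lowest at ZT12. The low hour went with the high hour. Of the 74 members highest at ZT12, 58 were lowest at ZT5, 6 at ZT3 and 4 at ZT9 or ZT10. Of the 26 members highest at ZT11, 2 were lowest at ZT5, 9 at ZT3 and 11 at ZT9 or ZT10. The 2 groups differed in shape. Relative to its own mean over the 9 hours, the median ZT12 member stood at 0.69 log2 units at ZT12 and at -0.83 at ZT5. The median ZT11 member stood at -0.21 at ZT3, -0.10 at ZT5, -0.17 at ZT10, 0.44 at ZT11 and 0.03 at ZT12, so that it was back near its mean in the last hour.

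**Figure D2:**
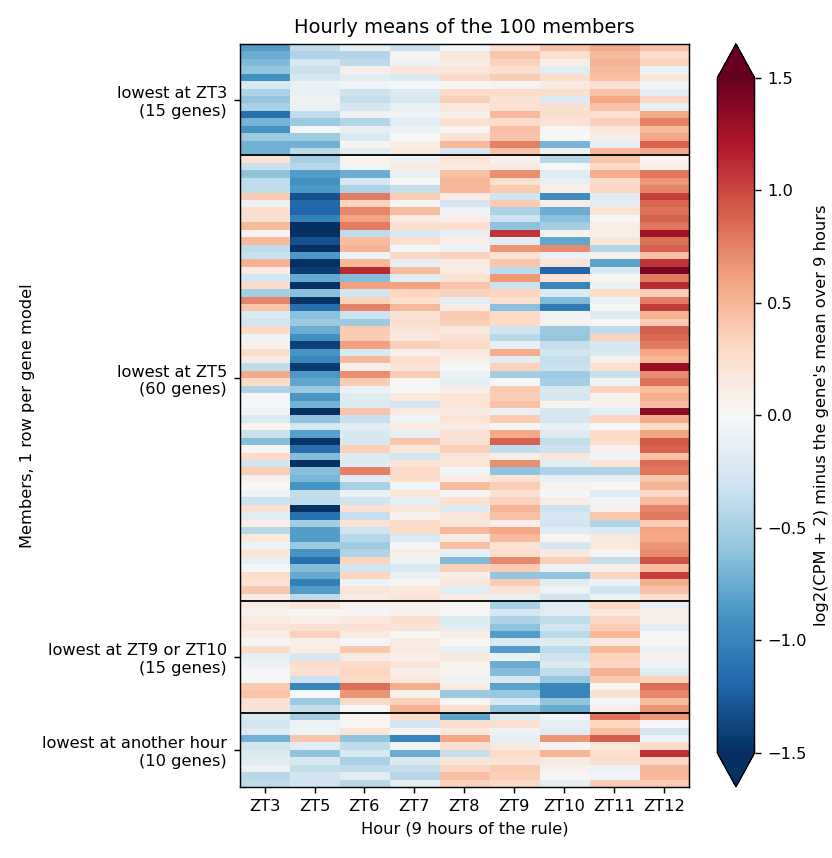
Hourly mean of each member (1 row per gene model) over the 9 hours of the choice, as log2(CPM + 2) minus the gene's own mean, in colours with a limit at each end of the scale; black lines separate the 15 members lowest at ZT3, 60 at ZT5, 15 at ZT9 or ZT10 and 10 at another hour. The 60 members lowest at ZT5 are mostly red at ZT12 and blue at ZT5, and the 15 members lowest at ZT9 or ZT10 are mostly red at ZT11 and blue at those hours.

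The 15 members lowest at ZT3 had the most gradual course. Their median stood at -0.69 log2 units at ZT3, -0.34 at ZT5, -0.18 at ZT6, -0.08 at ZT7, 0.17 at ZT8 and 0.34 at ZT9. It then stood at 0.13 at ZT10, 0.44 at ZT11 and 0.34 at ZT12. The 15 members lowest at ZT9 or ZT10 were above their mean from ZT3 to ZT8, with medians between 0.03 and 0.22, and stood at -0.57 at ZT9 and -0.38 at ZT10 before 0.31 at ZT11.

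The second highest hour of a member was seldom the neighbouring one. It was ZT9 for 32 members, ZT6 for 23, ZT8 for 14 and ZT11 or ZT12 for 9. The gap from the highest to the second highest hour had a median of 0.14 log2 units (quartiles 0.06 and 0.22). The member's own within-hour SD, the spread between libraries of an hour, had a median of 0.46 log2 units. The peak hour of a member was thus set by a gap that was usually smaller than the spread between libraries.

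Between the highest and the lowest hour the median member differed 2.63-fold (quartiles 1.99 and 3.48, range 1.28 to 8.33) on the log2(CPM + 2) scale, against a median of 1.69-fold over all gene models past the floor. The within-hour SD was 0.46 for the median member and 0.47 for the median of all gene models, so the members' larger F went with the larger range over hours. The members' F ran from 4.50 to 10.6 with a median of 5.50, against 1.83 over all gene models. Their mean abundance ran from 16.3 to 1998 CPM with a median of 56.4, against 39.1 CPM over all gene models. At the edge of the choice, NVE11665 and NVE18506 were the last 2 inside with F of 4.502 and 4.496. NVE2132 and NVE3700 were the first 2 outside with F of 4.489 and 4.481, and both were highest at ZT12 and lowest at ZT5.

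The 2 members with the largest F were both highest at ZT12. NVE5768 had a lowest, median and highest library of 6.04, 12.4 and 19.5 CPM at ZT3, 15.8, 21.6 and 26.3 CPM at ZT5, 29.8, 39.7 and 56.9 CPM at ZT9, and 33.6, 41.0 and 50.2 CPM at ZT12. Its libraries of ZT12 all lay above those of ZT3 and ZT5, and they overlapped with those of ZT9. Its means were 42.9 ± 6.45 CPM at ZT12 (SD, n = 7) and 12.6 ± 5.74 CPM at ZT3 (SD, n = 6).

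NVE12135 stayed low until ZT6 and differed from NVE5768 in the hour at which it left the low level. Its lowest, median and highest libraries were 14.1, 16.6 and 28.4 CPM at ZT3, 9.45, 17.4 and 21.7 CPM at ZT5, 7.67, 17.3 and 25.6 CPM at ZT6, and 9.37, 33.7 and 39.4 CPM at ZT7. They were 42.2, 46.7 and 54.96 CPM at ZT9, 7.12, 34.1 and 44.99 CPM at ZT10, and 41.0, 51.3 and 62.1 CPM at ZT12. At ZT10, 2 libraries lay at the early level, as low as 7.12 CPM, and the others did not.

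NVE18224 and NVE6662 had the largest F among members highest at ZT11. NVE18224 was an abundant transcript with a dip in the afternoon. It held 510, 576 and 680 CPM in its lowest, median and highest library at ZT3, 282, 384 and 436 CPM at ZT9, 368, 448 and 648 CPM at ZT10, 602, 639 and 746 CPM at ZT11, and 345, 500 and 674 CPM at ZT12. Its ZT11 libraries all lay above its ZT9 libraries and overlapped with those of every other hour named. NVE6662 stood at 12.1, 18.7 and 34.8 CPM at ZT3, 28.2, 43.8 and 58.3 CPM at ZT9, 35.7, 61.3 and 74.2 CPM at ZT11, and 29.2, 55.2 and 76.0 CPM at ZT12.

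**Figure D3:**
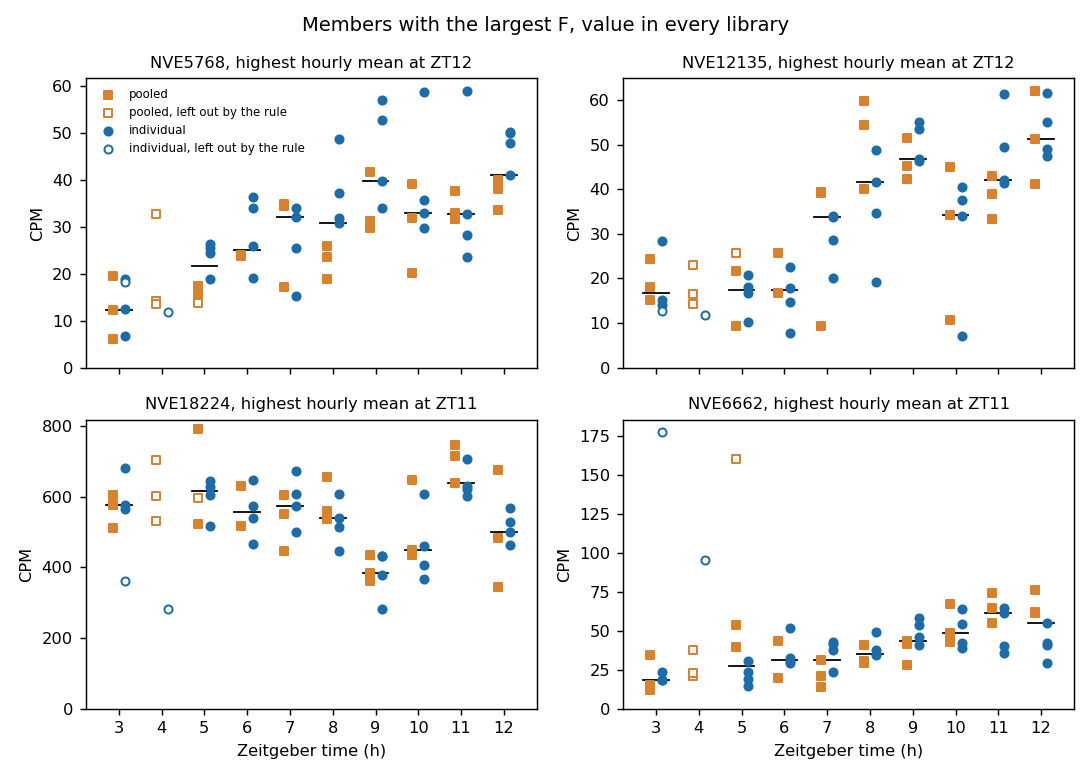
CPM of the 2 members with the largest F among those highest at ZT12 (NVE5768, NVE12135) and at ZT11 (NVE18224, NVE6662) in every library by hour; squares are pools, circles single animals, open symbols libraries left out of the choice, and lines medians of the others. NVE6662 shows open symbols at 177, 95.4 and 160 CPM at ZT3, ZT4 and ZT5, above all libraries used for the choice, while NVE18224 shows its low values at ZT9.

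The members with the widest range over hours were NVE20507 and NVE9193, both lowest at ZT5 and highest at ZT12. NVE20507 held 1.72, 12.0 and 20.7 CPM in its lowest, median and highest library at ZT5, 52.8, 76.2 and 167 CPM at ZT9, 32.98, 43.5 and 57.5 CPM at ZT11, and 36.1, 78.4 and 305 CPM at ZT12. At ZT12 its 3 highest libraries, at 156, 181 and 305 CPM, were all single animals, and the fourth single animal held 50.2 CPM. Its highest and lowest hourly means differed 8.33-fold.

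NVE9193 differed 8.03-fold between its highest and lowest hour. It held 24.7, 54.1 and 99.7 CPM in its lowest, median and highest library at ZT12 and 1.58, 5.78 and 9.86 CPM at ZT5, with no overlap. At ZT11 it held 3.11, 14.9 and 37.3 CPM, below its ZT3 median of 49.5 CPM. The ZT5 pool left out of the choice held 39.6 CPM of this transcript, above the 6 other libraries of that hour.

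At the other end, NVE12879 and NVE10009 differed 1.28-fold and 1.31-fold between their highest hour, ZT11, and their lowest, ZT9. They were the most abundant of the named members, with means of 1887 and 1998 CPM, and had small within-hour SDs of 0.14 and 0.13 log2 units. NVE10009 held 2012, 2213 and 2305 CPM in its lowest, median and highest library at ZT11 and 1325, 1691 and 1921 CPM at ZT9, without overlap. NVE12879 held 1833, 2083 and 2366 CPM at ZT11 and 1287, 1562 and 1891 CPM at ZT9, and its lowest ZT11 library lay below its highest ZT9 library.

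Counts behind the members were mostly present in every library. A count above 0 was found in all 66 libraries for 90 members, 9 members had 1 or 2 libraries at 0, and NVE5652, with a mean of 16.3 CPM, had 3. The highest library held a median of 19.6% of a member's summed CPM at its peak hour. Only NVE25933 was above 40%: ZT12 pooled F, at 982 CPM, held 43.7% of it, against 82.0 to 323 CPM in the other 6 libraries of ZT12.

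The peak hour was then read in each sample type apart, which uses the same libraries in 2 parts and carries no test. The highest hour was ZT11 or ZT12 for 63 members in pooled libraries alone, for 79 in individual libraries alone, and for 42 in both. In pools the most common other peak hour was ZT6, for 20 members, where there were 2 pools. As a mean over the members, pools stood at 0.34 to 0.54 log2 units at ZT12 and individual libraries at 0.50 to 0.71. At ZT11 the order was the other way round, at 0.16 to 0.26 in pools and 0.04 to 0.10 in individual libraries.

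The 2 libraries of ZT3 and ZT5 that were left out of the choice give a view of the low hours that the choice did not use. ZT5 pooled E had a mean over the members of -0.61 log2 units, inside the range of -0.93 to -0.41 of the other 6 ZT5 libraries. It lay within that range for 57 members, below it for 20 and above it for 23. ZT3 individual B stood at -0.35, below the range of -0.29 to 0.09 of the other 6 ZT3 libraries, and lay within their range for 63 members, below it for 28 and above it for 9. Both libraries carried the shared block with high NVE3853. The same counts were not made over all gene models, so nothing about the members is read from them.

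ZT4 was wholly left out of the choice, so its level was not used in it. The hours it is set against were used, and the test's estimate of the spread rests largely on the same libraries. The test is therefore not fully independent of the choice. The question was whether the members stood below or above their daytime mean at this hour. In edgeR's quasi-likelihood F test with sample type as covariate and Benjamini-Hochberg adjustment over 10916 gene models, 7 members fell and 4 rose at ZT4 against the mean of the other 9 hours at an adjusted p below 0.05. Of all gene models tested, 0.971% fell and 2.29% rose. At an unadjusted p below 0.05, 25 of 100 members were lower and 12 higher, beside 938 lower (8.59%) and 1081 higher (9.9%) among all gene models. The median difference was -0.35 log2 units over the members and -0.04 over all gene models tested, and 66 of 100 members were below 0, against 53.7% of all gene models.

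The 4 ZT4 libraries were not alike. As a mean over the members, individual C stood at -0.98 log2 units and pooled D at -0.76, near the ZT5 libraries, whereas pooled E stood at -0.07 and pooled F at -0.01, near those of ZT3. Of 100 members, 86 lay below their 60-library mean in C, 76 in D, 60 in E and 57 in F. Over all 7691 gene models the share below was 68.7% in C, 55.3% in D, 51.2% in E and 52.1% in F. In individual C, which had the lowest total, the median of all 7691 gene models was also low, at -0.31 log2 units, and its part in the members' level was not tested. In pooled D the median of all gene models was -0.07. Without individual C and pooled D together, a setting added after seeing the data, the median ZT4 difference was -0.14 log2 units over the members and -0.11 over all gene models. Of the members, 3 fell and 10 rose at an edgeR adjusted p below 0.05 in that fit, in which 1.19% of 11899 gene models fell and 2.68% rose.

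Without ZT4 individual C, 0 of the 7 members that fell were still called, and all 7 differences kept their sign. Of the same 7, 1 stayed called without pooled D, 3 without pooled E and 2 without pooled F. Of the 4 members that rose, 3 stayed called without individual C, 4 without pooled D, 1 without pooled E and 1 without pooled F. Calls over all gene models in these fits are not given here, so nothing particular to the members is read from the lost calls.

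The 2 members with the smallest p among those higher at ZT4 were high in pools E and F and not in the other 2 libraries. NVE20507 held 489 and 515 CPM in pooled E and F and 16 and 23.8 CPM in pooled D and individual C, against 1.72 to 305 CPM in the other 62 libraries. Its difference was 2.53 log2 units (SE 0.40, edgeR adjusted p = 2.0e-05), and without any 1 of the 66 libraries it stayed between 2.01 and 2.95 with an adjusted p of at most 0.0107. NVE13257 held 976 and 1056 CPM in pooled E and F and 94.2 and 71.5 CPM in pooled D and individual C, against 26.9 to 664 CPM in the other 62 libraries. Its difference was 1.71 log2 units (SE 0.37, edgeR adjusted p = 0.0031), and it was 1.33 without pooled E (adjusted p 0.122) and 1.20 without pooled F (adjusted p 0.161). Without the 4 libraries with high NVE3853 it was 1.82 (adjusted p 0.0592). These 2 gene models, both highest at ZT12 and lowest at ZT5 in the choice, thus had their 2 highest libraries of the series at ZT4. After removal of hour and sample type, their levels had a Pearson correlation of 0.71 across the 66 libraries, a description that includes pools E and F.

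Among the members lower at ZT4, NVE4966 and NVE17739 had the smallest p. NVE4966 held 17.8, 54.2 and 39.4 CPM in pooled D, E and F and 7.95 CPM in individual C, where this is 2 counts, against 25.5 to 280 CPM in the other 62 libraries. Pooled D and individual C lay below all of those 62, and pooled E and F inside their range. Its difference was -1.44 log2 units (SE 0.36, edgeR adjusted p = 0.0116). It was -1.19 without individual C (adjusted p 0.0817), -1.23 without pooled D (adjusted p 0.068) and -1.54 without pooled F (adjusted p 0.0542). Without the 4 libraries with high NVE3853 it was -1.56 (adjusted p 0.166), and without individual C and pooled D together -0.90 (adjusted p 0.286).

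NVE17739, one of the members highest at ZT11, held 42.7, 58.7 and 63.9 CPM in pooled D, E and F and 43.7 CPM in individual C, against 39.1 to 131 CPM in the other 62 libraries. All 4 ZT4 values lay in the lower part of that range. Its difference was -0.58 log2 units (SE 0.15, edgeR adjusted p = 0.018), and it was -0.56 without individual C (adjusted p 0.0592), -0.48 without pooled D (adjusted p 0.106) and -0.59 without pooled E (adjusted p 0.0941). With no filter on low counts it was -0.60 (adjusted p 0.0638), without the 4 libraries with high NVE3853 -0.59 (adjusted p 0.255), and without individual C and pooled D together -0.44 (adjusted p 0.236).

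**Figure D4:**
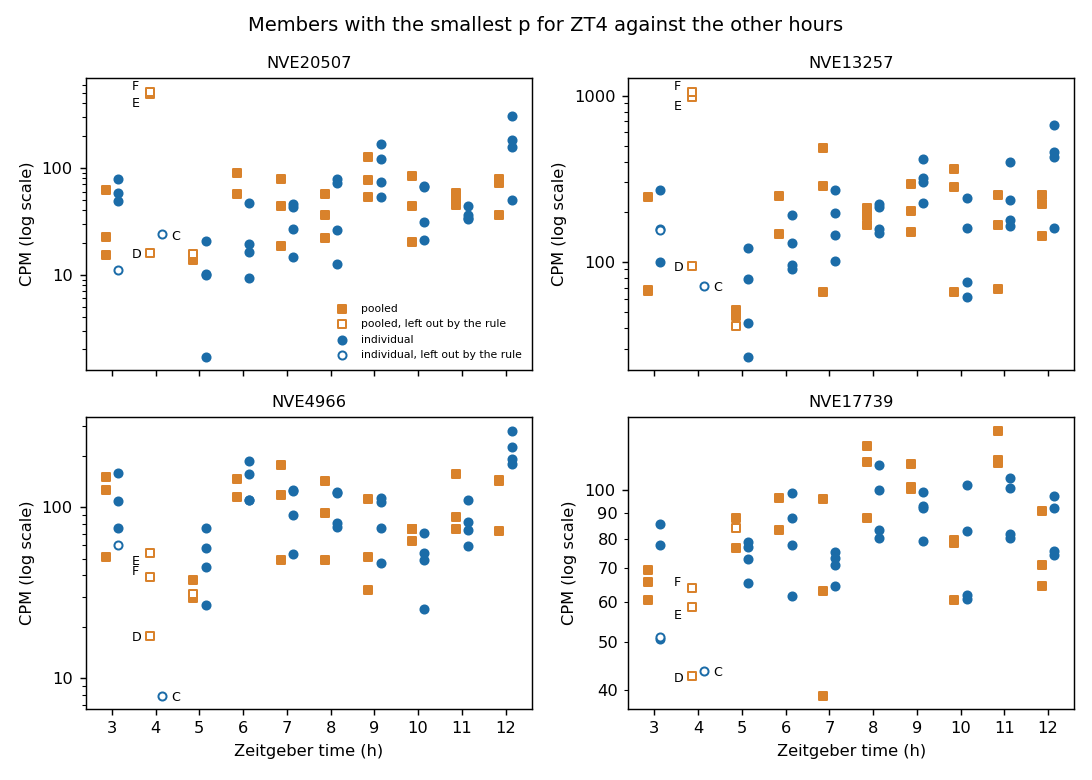
CPM (log axis) of the 2 members with the smallest p among those higher at ZT4 (NVE20507, NVE13257) and among those lower (NVE4966, NVE17739) in every library by hour; squares are pools, circles single animals, open symbols libraries left out of the choice, and letters name the 4 ZT4 libraries. For NVE20507 pools E and F stand at 489 and 515 CPM above all others, while pool D and individual C lie at 16 and 23.8 CPM.

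By lowest hour, the 15 members lowest at ZT3 had a median ZT4 difference of -0.58 log2 units, with 13 of 15 below 0. It was -0.35 for the 60 members lowest at ZT5, with 39 below 0, and -0.06 for the 15 lowest at ZT9 or ZT10, with 9 below 0. For the 10 members lowest at another hour it was 0.06, with 5 below 0. The 100 gene models chosen in the same way with the highest hour at ZT9 had a median of -0.18 with 68 below 0, and those with the highest hour at ZT10 had a median of 0.04 with 42 below 0. These medians stand side by side and their differences were not tested. The lowest hour was ZT5 for 60 of the members, against 44 gene models of the ZT9 set and 11 of the ZT10 set.

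A total of 96 of the 100 members passed the edgeR test of any difference between the 10 hours, where 21.9% of all gene models did. The choice used these hours, and nothing is read from the count. The 4 that did not pass were NVE6662 (edgeR adjusted p = 0.545), one of the 2 with the largest F among those highest at ZT11, and NVE4784, NVE25496 and NVE17471 (0.293, 0.111 and 0.0722), the last 3 named after their values were seen.

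Pools of 2 animals were compared with single animals at the same hours, a contrast the choice did not use. No member differed between pooled and individual libraries in edgeR's test at an adjusted p below 0.05, and neither did any gene model (0.0%). DESeq2 and limma also called 0 members, and at an unadjusted p below 0.05 edgeR had 5 members higher and 3 lower in pools, beside 324 higher and 273 lower among all gene models. The median difference was 0.01 log2 units over the members and 0.01 over all gene models.

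The member with the smallest p was NVE5768. Over all hours it held 6.04, 25.98 and 41.6 CPM in its lowest, median and highest pooled library and 6.75, 32.1 and 58.9 CPM in the individual libraries. At ZT12 it held 33.6, 37.99 and 39.99 CPM in pools and 41.0, 47.8, 49.8 and 50.2 CPM in individual libraries, which did not overlap. Its difference was -0.30 log2 units (SE 0.10, edgeR adjusted p = 0.659, 29 pooled and 37 individual libraries).

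NVE24289 held 47.5, 56.5 and 70.9 CPM in pools at ZT12 and 93.7, 94.7, 112 and 121 CPM in individual libraries, with a difference over all hours of -0.48 log2 units (SE 0.19, edgeR adjusted p = 0.792). On the other side, NVE11148 had a median of 35.5 CPM in pools and 29.5 CPM in individual libraries (0.27 log2 units, SE 0.11, edgeR adjusted p = 0.792). NVE25933 had a median of 155 CPM in pools and 111 CPM in individual libraries (0.47 log2 units, SE 0.19, edgeR adjusted p = 0.807). None of these 4 differences passed the adjusted threshold, and nothing is read from the values of a single hour.

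Whether the course over the day differed between pools and single animals was tested as an interaction of hour and sample type. In edgeR's test 0 members and 16 gene models (0.147%) passed an adjusted p below 0.05, and 9 members had an unadjusted p below 0.05, beside 806 of all gene models (7.38%). NVE6662 came nearest, with an edgeR adjusted p of 0.0524, which was 0.0041 in DESeq2 and between 0.013 and 0.512 in edgeR without 1 library at a time. This gene model held 177 CPM in ZT3 individual B, 95.4 CPM in ZT4 individual C and 160 CPM in ZT5 pooled E, above the highest value of 76.0 CPM in the other 63 libraries. These are 3 of the 4 libraries with high NVE3853, and the fourth, ZT4 pooled E, held 37.6 CPM. NVE18451 followed, with an edgeR adjusted p of 0.531. It held 39.2, 124 and 217 CPM in its lowest, median and highest library at ZT12 and 1.97, 12.96 and 48.7 CPM at ZT5.

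The highest of all 66 libraries of a member was at ZT12 for 42 members and at ZT11 for 10. It was one of the 6 libraries left out of the choice for 11 members, of which 7 had it in ZT4 pooled F, 1 in ZT4 pooled E, 2 in ZT3 individual B and 1 in ZT5 pooled E.

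Members varied together only weakly between libraries of the same hour. After removal of hour and sample type, the median Pearson correlation over the 4950 pairs of members was 0.09 across the 66 libraries, against 0.02 over all pairs of gene models past the floor. Values of one library share its total and composition, so these are descriptions. Within the 15 members lowest at ZT3 the median was 0.13, within the 60 lowest at ZT5 it was 0.15, within the 15 lowest at ZT9 or ZT10 it was 0.26, and within the 10 lowest at another hour it was 0.03. The pairs that followed each other most were NVE23181 with NVE3285 (0.82), NVE10009 with NVE12879 (0.82) and NVE4966 with NVE18959 (0.81), named here after their values were seen. The second of these is the abundant pair with the narrow range described above.

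Against the mean of the other members, NVE18926 and NVE23864 had the highest correlations, at 0.70 and 0.65 across the 66 libraries. After removal of hour and sample type, the mean over the members lay furthest from 0 in the ZT4 libraries. It stood at -0.51 log2 units in individual C and at -0.31, 0.39 and 0.44 in pooled D, E and F. The part of these libraries in the correlations was not tested. NVE18926 held 181, 221 and 301 CPM in its lowest, median and highest library at ZT12 and 92.7, 122 and 158 CPM at ZT5. NVE23864 held 84.1, 107 and 149 CPM at ZT12 and 23.6, 40.3 and 61.5 CPM at ZT5, and neither overlapped between the 2 hours. At the other end were NVE26065, at -0.17, and NVE6662, at -0.27. NVE6662 had its highest values in ZT3 individual B, ZT4 individual C and ZT5 pooled E, at 177, 95.4 and 160 CPM. The residual of the members' mean in these libraries was -0.19, -0.51 and 0.04 log2 units, and their part in the correlation was not tested. NVE26065 was highest at ZT11 and lowest at ZT9, with 237, 262 and 310 CPM at ZT11 and 58.3, 114 and 137 CPM at ZT9. The residual of the members' mean had a correlation of 0.37 with the library total, 0.07 with NVE20622, a transcript that varied strongly between animals, and -0.10 with NVE3853, and the part of the total in the members' level was not tested.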

How the data were processed

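Whole-animal RNA was sequenced in 66 libraries, per the labels. The authors deposited 1 table of whole-number counts for each gene model, made against the genome of Putnam and colleagues per the labels, with Bowtie2 per the submitters' processing notes. How reads were counted, against which annotation, and whether duplicates were kept is not given in the sources used here. Related gene models may have shared reads.

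CPM for the choice of members and for printed levels used column totals, with a pseudocount of 2 on the log2 scale. Tests used edgeR 4.0.16 in R 4.3.3 on the counts (TMM factors, filter by expression with a minimum count of 10, robust quasi-likelihood F test, 55 residual degrees of freedom). The filter left 10916 gene models with 97.2% of counts, all 100 members included. Adjusted p-values are those of Benjamini and Hochberg over all gene models tested. Alternatives tried were limma 3.58.1 with voom, DESeq2 1.42.0, other scalings, no filter, and libraries left out. Chosen after seeing the data were leaving out ZT4 individual C with pooled D, counting pooled D as individual, and edgeR's older method. The members and all lists and tests were chosen with earlier results of these data known.

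Members named were the largest F at each peak hour, the widest and narrowest ranges, those at the edge of the choice, the smallest p of each test, and those following the members' mean most and least. No pair of libraries agreed within sampling noise (lowest chi-square per degree of freedom 2.65 over 2145 pairs).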

Additional observations from a re-analysis of the deposited data

Results flagged for a closer look

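The single animals of each of 9 hours with 4 such libraries were examined for 22 measures, which are the 20 named members, the mean level over the 100 members and the library total. Of these 198 sets of 4 libraries, 10 held a library far from the other 3 by Dixon's 95% limit, where chance gives about 1 in 20. The number found is near that share, so the 10 are listed for inspection and nothing about the members is read from them. This examination was widened to every named member after the values had been seen. The 10 fell on 8 named members, and the mean level over the members and the library total gave 0.

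NVE6662 stood at 177.3 CPM in ZT3 individual B, against 18.6 to 23.7 CPM in the other 3 single animals of that hour, and at 51.74 CPM in ZT6 individual A, against 29.5 to 32.4 CPM. NVE18451 stood at 48.68 CPM in ZT5 individual D, against 8.60 to 14.8 CPM in the other 3, and at 216.6 CPM in ZT12 individual B, against 124 to 137 CPM. In ZT3 individual D, NVE12135 stood at 28.41 CPM, against 12.8 to 15.2 CPM in the other 3, and NVE24289 at 59.97 CPM, against 25.6 to 31.2 CPM. NVE25933 stood at 87.02 CPM in ZT5 individual B, against 38.4 to 41.3 CPM in the other 3. NVE18926 stood at 263.6 CPM in ZT9 individual A, against 156 to 174 CPM in the other 3.

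In the remaining 2 sets the library was the lowest of the 4. NVE10009 stood at 1325 CPM in ZT9 individual B, against 1683 to 1731 CPM in the other 3. NVE9193 stood at 52.97 CPM in ZT12 individual C, against 92.3 to 99.7 CPM in the other 3. The sets of ZT3 include individual B, which was left out of the choice of members.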

How the results depend on the processing

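The choice of members moved with the libraries used. Of the 100 members, 74 to 97 were still picked with TMM factors, other pseudocounts or other floors, and 75 to 96 with any 1 of the 60 libraries left out. Only 66 were picked from all 66 libraries and 10 hours, 37 from individual libraries alone and 25 from pooled libraries alone. With 4 libraries, ZT4 gave the least firm results, and the cause of the changes below was not tested.

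For ZT4, the count of members that fell (7) was 1 with no filter on low counts, 0 without the 4 libraries of the shared block, 3 without individual C and pooled D together, and 0 to 7 without 1 library at a time. The count of members that rose (4) was 9 with limma, 1 without the 4 libraries, 10 without individual C and pooled D together, and 1 to 6 without 1 library at a time. Apart from the replicate block given below, both counts stayed within 1.5 times under the other settings run. Without individual C and pooled D, 1.19% of all gene models fell and 2.68% rose, against 0.971% and 2.29% with all libraries. For the other settings, the replicate block included, no share of all gene models is given here. A change in those counts is therefore not told apart from a change in calls over all gene models. Members with a negative difference numbered 59 to 76 over the other settings and 61 to 70 without 1 library at a time. Scaling by library totals moved the median of all gene models at ZT4 to -0.14, with the members at -0.44.

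The count for pools against single animals was 0 under every setting run, and 0 to 0 without 1 library at a time. That of the interaction was 1 with DESeq2 (NVE6662), 1 with pooled D counted as individual (NVE20507, adjusted p 0.0495), and 0 to 1 without 1 library at a time. The 10 libraries whose omission gave 1, in each case NVE6662, were ZT3 A, B, C, D and E, ZT4 E, ZT5 F and G, ZT6 F and ZT12 D. For these interaction fits no share of all gene models is given here, so nothing about the members is read from the counts of 1.

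With the replicate letter as a replicate block, 3 members fell and 3 rose at ZT4, and the interaction stayed at 0. No pairing by letter was evident in the values: 11 of 66 libraries correlated best with their own letter. The median correlation of residuals was 0.0044 for the same letter and 0.0136 for others. These values do not settle what a letter stands for. No paired analysis was possible for pools against single animals because they share only the letter D, carried by 1 ZT4 pool.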
